A study of Mus musculus with 15 samples.

Results

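8 genes of the extraembryonic ectoderm and trophoblast were followed in whole mouse embryos at embryonic day 7.5, among 45232 genes measured: Elf5, Cdx2, Esrrb, Bmp8b, Ascl2, Tpbpa, Prl3d1 and Plet1. They were chosen by name, each matched to its Ensembl identifier through its GENCODE symbol, and all 8 were found. The embryos fell into 3 groups: 6 Apela knockouts of the NEO-IN strain (numbered 1 to 6), 6 Apela knockouts of the NEO-OUT strain (7 to 12) and 3 wild-type embryos (1 to 3). Apela encodes a small secreted peptide ligand of the apelin receptor; the labels do not say what distinguishes the alleles behind the strain names. All embryos shared a mixed C57Bl6 and CD-1 background and were staged by morphology, and the knockouts were offspring of homozygous knockout parents. RNA came from single embryos with their extraembryonic tissues, so that in such bulk samples fewer cells of a type and less RNA per cell cannot be told apart.

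The trophoblast lineage is the first to separate from the rest of the mouse embryo. Its proximal tissue at gastrulation, the extraembryonic ectoderm, holds trophoblast stem cells kept by FGF signalling and by transcription factors such as Cdx2, Eomes, Elf5 and Esrrb, and it sends BMP signals to the neighbouring epiblast. Cells that leave this state form the chorion, the ectoplacental cone and, at the border with the uterus, giant cells that secrete hormones of the prolactin family.

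Reads counted in genes summed to between 48.8 and 61.3 M per library, where a fragment may count as 2 reads. Each library detected between 20427 and 21059 genes. Apela averaged 11.5 ± 7.24 normalized counts in NEO-IN (SD, n = 6), 69.6 ± 21.6 in NEO-OUT (SD, n = 6) and 1663 ± 505 in wild-type (SD, n = 3), low in both knockout groups. A normalized count is a read count divided by the size factor of its library. Y-linked RNA was found in 3 NEO-IN and 2 NEO-OUT embryos and in none of the wild-type embryos, and the labels give neither sex, litter nor batch. The embryos are separate animals, and every p-value below measures the spread between them.

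Promoter sequences are shown for the members on which the results turn: Esrrb, the only member called different between groups, and Ascl2 and Plet1, which varied together from embryo to embryo. Each runs from 250 bases before to 50 bases after a RefSeq transcript start (GRCm38.p6), 5′ to 3′ on the strand of the gene. Capitals mark a match to a searched motif. Esrrb has a pair of annotated starts, at chr12:86360867-86361166 and chr12:86421394-86421693, both on the plus strand. Ascl2 lies at chr7:142969215-142969514 on the minus strand and Plet1 at chr9:50494275-50494574 on the plus strand.
Esrrb start 1: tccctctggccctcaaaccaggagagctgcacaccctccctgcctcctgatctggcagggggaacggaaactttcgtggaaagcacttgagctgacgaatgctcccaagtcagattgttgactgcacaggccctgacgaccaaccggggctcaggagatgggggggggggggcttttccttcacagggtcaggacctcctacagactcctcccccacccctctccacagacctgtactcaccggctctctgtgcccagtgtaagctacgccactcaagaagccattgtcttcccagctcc
Esrrb start 2: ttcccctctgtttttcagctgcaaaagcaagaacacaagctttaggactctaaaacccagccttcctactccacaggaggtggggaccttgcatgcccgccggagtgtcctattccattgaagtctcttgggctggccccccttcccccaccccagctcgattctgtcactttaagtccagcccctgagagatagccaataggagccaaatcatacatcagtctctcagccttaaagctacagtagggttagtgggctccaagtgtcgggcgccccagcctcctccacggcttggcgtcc
Ascl2: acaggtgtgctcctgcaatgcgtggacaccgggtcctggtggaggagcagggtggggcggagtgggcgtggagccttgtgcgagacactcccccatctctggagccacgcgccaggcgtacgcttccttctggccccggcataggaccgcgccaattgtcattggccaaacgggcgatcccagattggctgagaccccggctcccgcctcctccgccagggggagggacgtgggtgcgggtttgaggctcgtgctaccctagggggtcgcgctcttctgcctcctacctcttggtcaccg
Plet1: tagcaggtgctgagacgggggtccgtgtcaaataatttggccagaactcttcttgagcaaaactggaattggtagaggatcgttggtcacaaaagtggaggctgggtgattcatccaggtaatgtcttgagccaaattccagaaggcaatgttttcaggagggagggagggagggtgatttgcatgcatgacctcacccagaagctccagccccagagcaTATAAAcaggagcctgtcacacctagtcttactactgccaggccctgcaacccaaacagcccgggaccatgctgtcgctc

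The motifs searched, on both strands, were GCCNNNGGC for the TFAP2 family, GGAATG for the TEAD family, AGATAA for the GATA family, AAGGTCA for ESRRB, TTTATG for the CDX family and TATAAA, the TATA box. Among 32851 RefSeq promoters of the same length, they occurred in 16.6%, 14.7%, 11.2%, 4.72%, 11.9% and 13.6%. The Plet1 window held a TATA box beginning 30 bases before the start and no other searched motif. None of the searched letters occurred in the windows of Esrrb, Ascl2, Bmp8b or Prl3d1. The first Elf5 window held a TEAD match and the second a CDX match, Cdx2 held a TFAP2 match, and Tpbpa held a TFAP2 and a CDX match.

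6 of the members were well expressed and a pair of them was close to undetected. Per kilobase of exon, mean levels over all 15 embryos were 2777 normalized counts for Cdx2, 889 for Ascl2, 527 for Elf5, 486 for Plet1, 286 for Esrrb, 281 for Bmp8b and 25.1 for Prl3d1. In wild-type embryos Ascl2 (662 ± 137 per kilobase, SD, n = 3) and Elf5 (538 ± 52.3) differed by less than the spread of Ascl2. Plet1 (312 ± 55.1), Bmp8b (276 ± 19.2) and Esrrb (262 ± 20.5) were within the spread of Plet1. The extraembryonic ectoderm label was met by its markers, whereas Tpbpa, the defining gene of the ectoplacental cone and spongiotrophoblast, was at 0 reads in every embryo but NEO-IN 2, which had 2 reads. Since most low read counts were even numbers, a fragment may give a pair of reads, and a count of 0 was taken to allow up to 3 fragments or 6 reads per library, which is 5.59 to 7.06 normalized counts, from counting error alone.

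**Figure D1:**
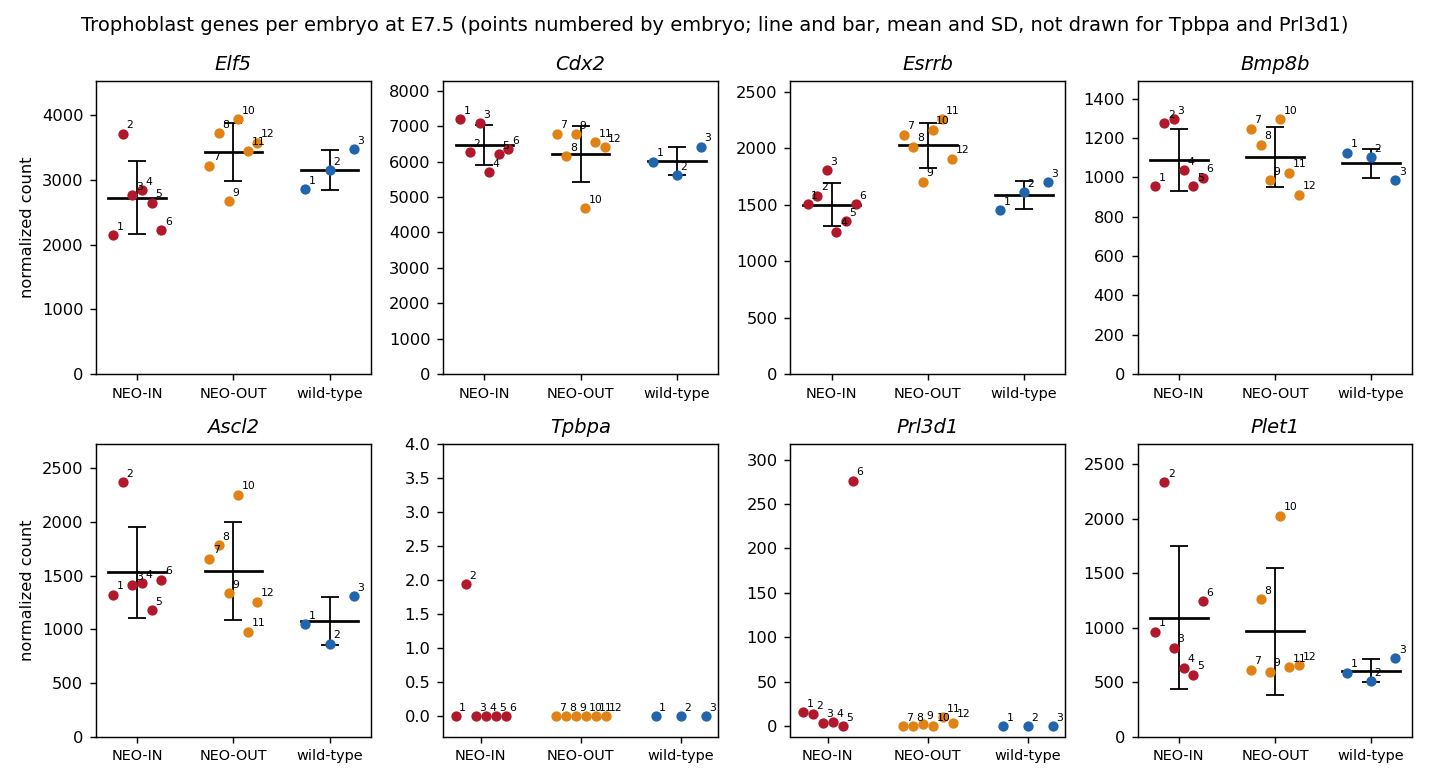
Normalized count (linear axis) of each of the 8 genes in every embryo, with points numbered by embryo and, except for Tpbpa and Prl3d1, the mean and SD of each group. All 6 NEO-OUT embryos lie above the 3 wild-type embryos for Esrrb, and NEO-IN 6 stands alone for Prl3d1 at 276.

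4 comparisons were made across 16430 genes with a mean of at least 10 normalized counts, a filter that 7 of the 8 members passed (all but Tpbpa). Prl3d1 passed only through NEO-IN 6, with a mean of 3.81 normalized counts over the other 14 embryos, so that its tests are not read and the counts below are of the other 6. Calls rest on limma with a Benjamini-Hochberg adjusted p under 0.05, and fold changes are on the log2(normalized count + 1) scale. In NEO-IN versus wild-type 0 of the 6 were called, against 2.98% of all genes. In NEO-OUT versus wild-type 1 was called higher, Esrrb, against 3.34% of all genes called higher and 6.35% called in either direction. In Apela KO versus wild-type, the mean of both strain effects, 0 were called, against 2.83% of all genes. In NEO-IN versus NEO-OUT 1 was called lower, again Esrrb, against 6.52% of all genes called lower and 13.3% called in either direction. 1 called of 6 is too few to be set apart from these backgrounds. The unadjusted limma p of Ascl2 was under 0.05 in each of the comparisons with wild-type. That held for 2954 of all 16430 genes in NEO-IN, 3754 in NEO-OUT and 3036 in Apela KO, each versus wild-type. In NEO-IN and in Apela KO versus wild-type, edgeR and DESeq2 called 0 members as well. The comparisons with wild-type share the 3 wild-type embryos.

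**Figure D2:**
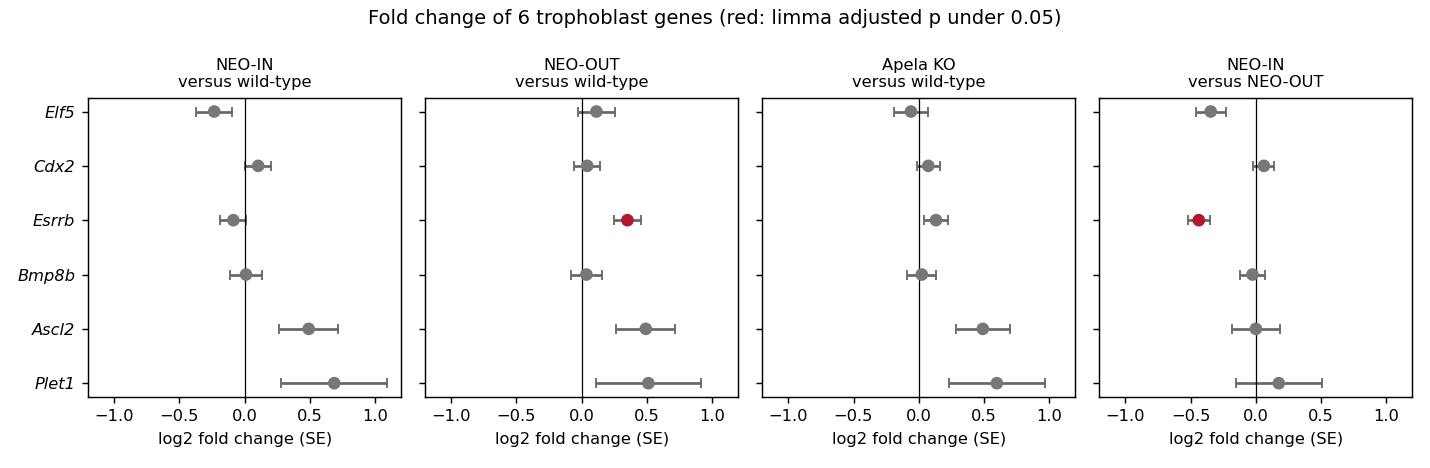
Log2 fold change with its standard error (horizontal bars) for 6 genes in the 4 comparisons, positive where the first-named group is higher; red points passed a limma adjusted p under 0.05. Esrrb is red for NEO-OUT versus wild-type, at 0.35, and for NEO-IN versus NEO-OUT, at -0.44, and no other gene passed.

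Among the transcription factors of the stem cell state, Esrrb, an orphan nuclear receptor required for trophoblast stem cells, was higher in NEO-OUT. It had a lowest, median and highest value of 1260, 1502 and 1802 normalized counts in NEO-IN and of 1702, 2064 and 2255 in NEO-OUT, against 1451, 1609 and 1695 in the wild-type embryos. Every NEO-OUT embryo was above every wild-type embryo, NEO-OUT 9 by a narrow margin, and the groups did not overlap, in either direction, for 13.7% of all genes tested. By contrast 5 of the 6 NEO-IN embryos were below every NEO-OUT embryo. The log2 change of Esrrb was 0.35 in NEO-OUT versus wild-type (SE 0.10, limma adjusted p = 0.0459) and -0.44 in NEO-IN versus NEO-OUT (SE 0.08, limma adjusted p = 0.00227). The change in NEO-IN versus wild-type was -0.09 (SE 0.10, limma adjusted p = 0.699).

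The 2 Esrrb calls differed in how much they leaned on single embryos. The NEO-IN versus NEO-OUT call held in all 11 alternative settings and in all 15 fits that left out 1 embryo, with limma, edgeR or DESeq2 adjusted p between 1.09e-05 and 0.00669. The NEO-OUT versus wild-type call was lost in 11 of 15 fits without 1 embryo, with limma adjusted p of 0.196, 0.117 and 0.0773 without wild-type 1, 2 and 3. It was also lost without NEO-IN 1, 2 or 6 and without NEO-OUT 7, 8, 10, 11 or 12. Embryo sex as a covariate gave it a limma adjusted p of 0.0681. Genes within 5 Mb of Esrrb were called at 14.0% in NEO-IN versus NEO-OUT and 12.8% in NEO-OUT versus wild-type, beside 13.3% and 6.35% of all genes. Of 10 visceral endoderm genes, 9 had a positive log2 change in NEO-OUT versus wild-type. Called higher were 2, Ttr and Apoa1, beside 3.34% of all genes. Ttr, a thyroid hormone carrier, changed by 0.46 (SE 0.10, limma adjusted p = 0.0136), a call lost without wild-type 1 or 2. Apoa4 averaged lower in NEO-OUT, at 16894 normalized counts beside 19671 in wild-type. In NEO-IN versus NEO-OUT 4 of the 10 were called lower, Ttr among them, beside 6.52% of all genes. The summed level of the 10 visceral endoderm genes ran between 422187 and 531940 in NEO-IN, 488780 and 584912 in NEO-OUT, and 490458 and 518477 in wild-type; its part in the Esrrb values was not tested.

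Elf5, an ETS-family factor that holds cells in the trophoblast lineage, followed the same order without being called. Its lowest, median and highest values were 2150, 2707 and 3717 normalized counts in NEO-IN and 2677, 3513 and 3939 in NEO-OUT, against 2857, 3152 and 3472 in wild-type. 5 NEO-IN embryos were below every wild-type embryo, and NEO-IN 2 was above them all. The NEO-IN versus NEO-OUT difference was -0.35 (SE 0.11, limma adjusted p = 0.0546). DESeq2 called it (adjusted p = 0.0231), and so did limma without NEO-IN 2 (adjusted p = 0.00816) or without NEO-OUT 9 (adjusted p = 0.0194). Those embryos lay farthest from their group means, each toward the other strain (log2 deviations 0.47 and -0.35), so leaving either out enlarges the difference. No other alternative setting, edgeR included, and no other fit without 1 embryo called the difference.

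Cdx2, a caudal-type homeobox factor, is needed for the trophectoderm and at this stage is also transcribed in the posterior embryo. Its lowest, median and highest values were 5700, 6309 and 7195 normalized counts in NEO-IN and 4687, 6477 and 6786 in NEO-OUT, against 5616, 5996 and 6414 in wild-type. The groups overlapped, and no difference passed the test, with log2 changes of 0.10 for NEO-IN and 0.04 for NEO-OUT, each versus wild-type, and of 0.06 between the strains (SE 0.08 to 0.10, limma adjusted p of at least 0.624). The lowest value belonged to NEO-OUT 10, and Cdx1, a posterior paralogue, was lowest there too, at 471 normalized counts. Cdx1 ran between 3668 and 8816 in NEO-IN and between 1992 and 6670 in the other NEO-OUT embryos, against 3158 to 5471 in wild-type.

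Bmp8b, a BMP ligand from extraembryonic ectoderm that acts on the induction of germ cells in the epiblast, showed differences near 0 in every comparison. It ran between 955 and 1295 normalized counts in NEO-IN (median 1018) and between 912 and 1294 in NEO-OUT (median 1096), against 986, 1102 and 1125 in wild-type. Its log2 changes were 0.01 for NEO-IN and 0.04 for NEO-OUT, each versus wild-type, and -0.03 for NEO-IN versus NEO-OUT (SE 0.10 to 0.12, limma adjusted p of at least 0.896). Bmp8b shares 5.77% of its 50-base exon windows with other genes, mostly Bmp8a, and overlaps Ppie and 2 other genes, and the strand setting of the counting is not given in the sources used here.

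Of the genes of differentiating trophoblast, Ascl2, an imprinted basic helix-loop-helix factor of the ectoplacental cone, was above every wild-type embryo in 5 of 6 NEO-IN and 4 of 6 NEO-OUT embryos. Its lowest, median and highest values were 1177, 1419 and 2370 normalized counts in NEO-IN and 976, 1495 and 2251 in NEO-OUT, against 865, 1049 and 1308 in wild-type. The groups overlapped. The log2 change was 0.49 in both strains and in Apela KO versus wild-type (SE 0.22, 0.22 and 0.21), with limma adjusted p of 0.261, 0.205 and 0.208, and the strains differed by 0.00 (SE 0.18).

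Plet1, which encodes a surface protein of extraembryonic ectoderm and ectoplacental cone, varied most among the well expressed members. It ran between 570 and 2335 normalized counts in NEO-IN (median 890) and between 597 and 2027 in NEO-OUT (median 648), against 511, 588 and 723 in wild-type. 4 NEO-IN and 2 NEO-OUT embryos were above every wild-type embryo, and the other 2 NEO-IN and 4 NEO-OUT embryos lay within the wild-type range. Versus wild-type, log2 changes were 0.69 for NEO-IN (SE 0.40, limma adjusted p = 0.395) and 0.51 for NEO-OUT (SE 0.40, limma adjusted p = 0.486). They were 0.43 without NEO-IN 2 and 0.26 without NEO-OUT 10. The within-group SD of Plet1, 0.68 on the log2 scale, was at percentile 94.3 of all genes tested, beside 79.3 for Ascl2 and 53.0 to 65.2 for Elf5, Cdx2, Esrrb and Bmp8b. Plet1 overlaps the antisense gene Plet1os.

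The embryos high in Plet1 were high in Ascl2. Over the 15 pairs that the 6 well expressed members form, correlations of the deviations from group means were tested in 100000 within-group permutations. Ascl2 and Plet1 gave Pearson r = 0.83 over 15 embryos (permutation p = 0.00023, Benjamini-Hochberg adjusted p = 0.00345) and Spearman rho = 0.68 (permutation p = 0.00728, adjusted p = 0.109). Without NEO-IN 2 and NEO-OUT 10, the embryos farthest from the median, r was 0.60. No other pair had a permutation p adjusted under 0.05; the next was Bmp8b with Ascl2 (r = 0.62, adjusted permutation p = 0.19).

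**Figure D3:**
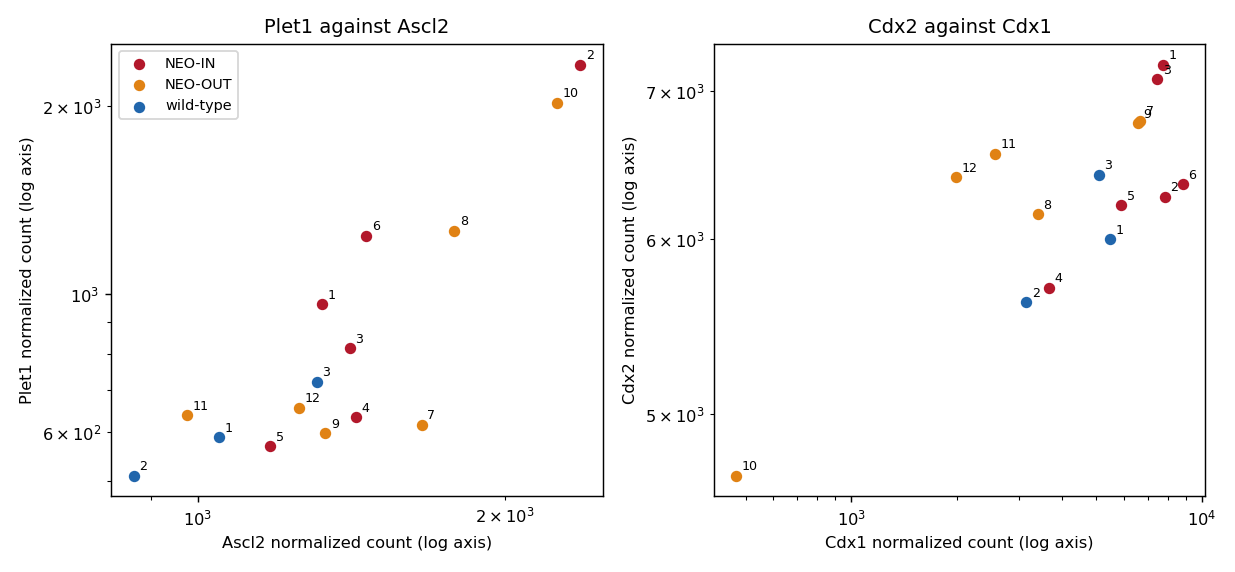
Normalized counts per embryo on log axes, numbered by embryo: Plet1 against Ascl2 (left) and Cdx2 against Cdx1 (right). NEO-IN 2 and NEO-OUT 10 are highest for Ascl2 and Plet1, and NEO-OUT 10 is lowest for Cdx1 and Cdx2.

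The same embryos led some other genes of trophoblast tissue. NEO-IN 2, NEO-OUT 10 and NEO-OUT 8 were the 3 highest embryos for Elf5, Ascl2 and Plet1 and also for Tfap2c, a factor of trophoblast stem cells, for Plac1, an X-linked placental gene, and for the connexin gene Gjb5. Plac1 had 3598 normalized counts in NEO-IN 2, 3475 in NEO-OUT 10 and 2672 in NEO-OUT 8, beside 1371, 1433 and 1760 in wild-type. These 3 embryos were the highest for 3 of 7 tested members, for 1 of 18 other extraembryonic ectoderm genes (5.56%) and for 0.432% of all genes tested. NEO-IN 2 ranked 10 of 15 for Eomes, 13 for Bmp4 and 14 for Id2. The 3 embryos were picked after their values were seen, so this is a description. Their summed reads in genes, 54.2 to 58.8 M, lay within the range of the rest, and one of these embryos, NEO-IN 2, had Y-linked RNA.

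**Figure D4:**
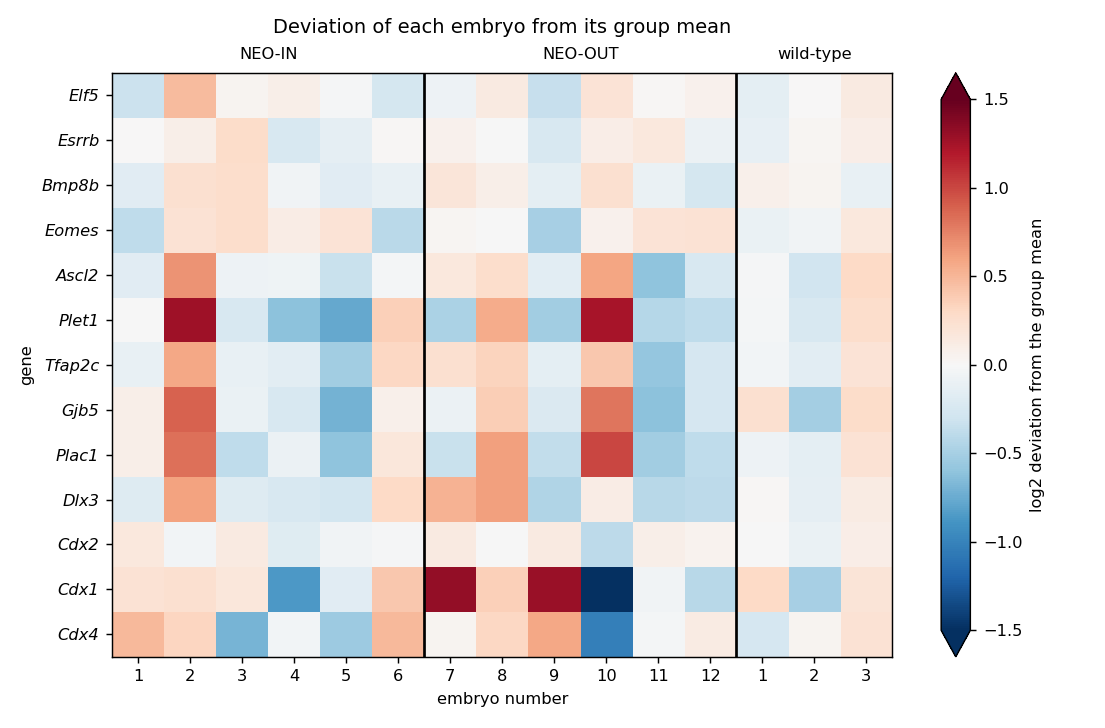
Log2 deviation of each embryo from its group mean (colour, cut at ±1.5) for 13 trophoblast and posterior genes, embryos in columns by group. NEO-IN 2 and NEO-OUT 10 are red for Ascl2, Plet1, Tfap2c, Gjb5 and Plac1, and NEO-OUT 10 is blue for Cdx2, Cdx1 and Cdx4.

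The tested genes with the pattern most like each member were ranked by Pearson r of deviations from group means over the 15 embryos. For Ascl2 they included Irx2 (0.95), and for Plet1 they were Sbsn (0.96), Krt19 (0.96) and Plac1 (0.95). For Cdx2 they were Il17rd (0.95), Tmem121b and Ccdc136, and Cdx1 was its closest listed gene (0.85). For Elf5 they were Hap1 (0.88), Gm2991 and Nexmif, with Eomes the closest listed gene (0.79). For Esrrb they were Gm28529 (0.88), Rims3 and Rpl36a, for Bmp8b Slc26a5 (0.89), Gm12017 and Mdfi, and for Prl3d1 Pfpl (0.94), AK157302 and 4930558J18Rik. Prl3d1 passed the filter only through NEO-IN 6 and was at 0 in 7 embryos. Its r values therefore rest on few embryos and are not read as results.

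Prl3d1, placental lactogen of trophoblast giant cells, was found mainly in a single embryo. Reads were 16, 14, 4, 4, 0 and 283 in NEO-IN 1 to 6 and 0, 0, 2, 0, 10 and 4 in NEO-OUT 7 to 12, against 0 in all 3 wild-type embryos. NEO-IN averaged 52.4 normalized counts, at least 8.84-fold higher than the wild-type floor of 6 reads per library (5.92 normalized counts). Without NEO-IN 6 the average was 7.56 ± 6.67 (SD, n = 5), which this spread does not set apart from the floor. NEO-OUT, at 2.60, was under the floor. Of its 50-base exon windows 55.6% occur in Prl3d2 or Prl3d3, so that reads may be split among them.

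Of 12 other giant cell genes 9 were above 0 in some embryo, and 7 of them were highest in NEO-IN 6. That embryo was picked after its Prl3d1 value was seen, and the share of all genes highest in it was not counted. The number is therefore a description, and Prl3d2 and Prl3d3 share exon sequence with Prl3d1. In that embryo Prl2c3 had 118 normalized counts, Prl3d2 61.5, Prl4a1 43.0, Prl2c2 41.0 and Prl3d3 16.6, beside at most 5.82 for any of these in the other 14 embryos. Adm, which encodes adrenomedullin, had 545 there and 100 in the next embryo, NEO-OUT 10, and Mmp9 had 145, with 113 in NEO-IN 1. Hand1 ranked 5 of 15 in NEO-IN 6 and Bhlhe40 ranked 10. The parietal endoderm gene Thbd was also highest in NEO-IN 6 (279, with 150 in the next). Of the decidua and uterine NK cell genes, Prl8a2 (56.7, with 49.0 in NEO-OUT 11) and Cryab (276, with 237 in NEO-IN 5) were highest there. Des was highest there by a narrow margin (466, with 453 in wild-type 3). Gzmf had its only 2 reads there. By contrast Pgr ranked 14 of 15 in NEO-IN 6 and Nkg7 ranked 5, and Prf1, Gzmc and Gzmd were at 0 there but not in every embryo. Prl3c1, Gzme and Gzmg were at 0 in every embryo. The summed level of all 12 ran between 753 and 1053 in NEO-IN, 641 and 776 in NEO-OUT, and 826 and 952 in wild-type, highest in NEO-IN 6, and its part in the Prl3d1 values was not tested.

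**Figure D5:**
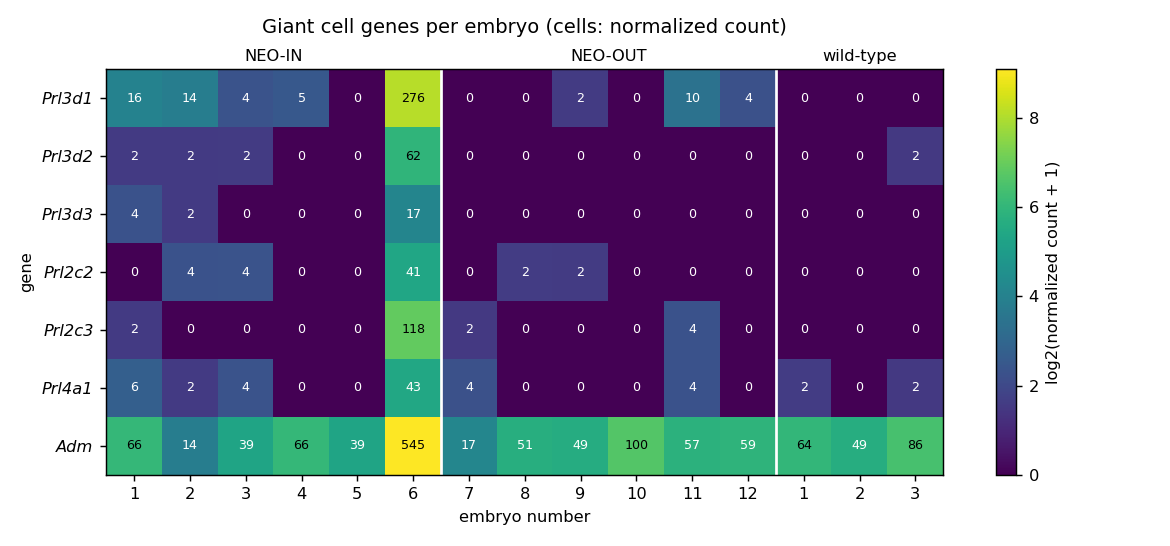
Normalized count (number in each cell) and log2(normalized count + 1) (colour) of 7 giant cell genes in every embryo, columns by group. NEO-IN 6 is highest in each row, with Prl3d1 at 276 and Adm at 545.

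In the wider lists of trophoblast genes, calls are to be read against 2.98% of all genes in NEO-IN versus wild-type, 2.83% in Apela KO versus wild-type and 13.3% between the strains. Of 18 other extraembryonic ectoderm genes, all tested, Rhox9, an X-linked homeobox gene, was called higher in NEO-IN versus wild-type (1.18, SE 0.27, limma adjusted p = 0.0259) and in Apela KO versus wild-type (1.02, SE 0.25, limma adjusted p = 0.0357); both calls were lost without any one wild-type embryo and with runs of 3 embryo numbers as a random block (limma adjusted p = 0.0668 and 0.0895), and the Apela KO call also with no filter. Eomes, a T-box factor of trophoblast stem cells and of the primitive streak, was lower in NEO-IN versus NEO-OUT (-0.49, SE 0.13, limma adjusted p = 0.0215), a call lost without NEO-OUT 11 or 12. Id2 was also lower there (-0.18, SE 0.06, limma adjusted p = 0.0447), in a call lost in 12 of 15 fits without 1 embryo and in 4 of 11 other settings. None of the 18 was called in NEO-OUT versus wild-type. The median log2 change of the 18 was 0.01 for NEO-IN, 0.11 for NEO-OUT and 0.04 for Apela KO, each versus wild-type, and -0.07 for NEO-IN versus NEO-OUT, where the median of all genes was 0.00 in each.

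Of 7 other ectoplacental cone genes, 6 were tested and none was called in any comparison; the smallest p values belonged to Flt1 (-0.18 in NEO-IN versus NEO-OUT, limma adjusted p = 0.167) and Gjb5 (0.55 in NEO-IN versus wild-type, limma adjusted p = 0.35). Tpbpb was at 0 in every embryo. Of 12 other giant cell genes, 4 were tested and none was called; the smallest p values belonged to Mmp9 (0.82 in NEO-IN versus NEO-OUT, limma adjusted p = 0.10) and Bhlhe40 (-0.54 in NEO-IN versus wild-type, limma adjusted p = 0.217). Prl3b1, Ctsq and Ctsj were at 0 in every embryo. Of 6 chorion and labyrinth genes, 4 were tested, and Tfeb was lower in NEO-IN versus NEO-OUT (-0.20, SE 0.04, limma adjusted p = 0.0078), a call kept in all 15 fits without 1 embryo.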

How the data were processed

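RNA from single embryos went into TruSeq Stranded mRNA libraries, per the labels. STAR, Picard, featureCounts, DESeq2, kallisto and mm10 are named in the submitters' processing notes, without roles. The values deposited by the authors are a signal, each gene's read count scaled by the size factor of its library. Whole reads were recovered for 100.0% of values above 0 (within 0.01), and 1 stray letter was removed from a cell. Between 76.9% and 79.1% of recovered counts from 1 to 20 were even, so a fragment may count as 2 reads. Names, positions and exon lengths came from GENCODE on GRCm38, and 98.6% of identifiers had a symbol.

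Log2(normalized count + 1) was fitted in limma 3.58.1 under R 4.3.3 with a variance trend, in 1 fit of 3 groups over 15 libraries, and tested two-sided. edgeR 4.0.16 and DESeq2 1.42.0 on the recovered reads were alternatives, as were other pseudocounts, filters, scalings and covariates. The fit was tested on simulated data. Intervals and floors cover counting error only. The members, gene lists and comparisons were chosen with earlier results of these data known. Named genes are all members, up to 4 called genes of each other list or otherwise the 2 with the smallest p, and the 3 genes most like each member; the results of some of these are not reported here. Genes shown for single embryos beyond this rule were chosen after their values were seen. Figures used matplotlib 3.10.9 under Python 3.11.15.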

Additional observations from a re-analysis of the deposited data

Results flagged for a closer look

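In groups of 4 to 10 embryos, a value was picked out where its gap to the nearest other embryo was large relative to the range of the group (Dixon's 95% critical value); 15 groups were tested and 4 values were picked, where chance picks about 1 in 20. A lone value above 0 among zeros is always picked, as for Tpbpa, so the number picked is not set against chance. Prl3d1 had 276 normalized counts in NEO-IN 6, beside 15.5 in the next NEO-IN embryo. Ascl2 had 2370 in NEO-IN 2, beside 1462 in the next. Cdx2 had 4687 in NEO-OUT 10, beside 6155 in the next lowest. Tpbpa had 1.94 in NEO-IN 2 and 0 in the other NEO-IN embryos, a value of 2 reads and under the floor of 6.

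Esrrb differed between the knockout strains: the log2 change in NEO-IN versus wild-type minus that in NEO-OUT versus wild-type was -0.44 (SE 0.08, limma adjusted p = 0.00227). The wild-type term cancels, so it is the NEO-IN versus NEO-OUT comparison given above and not a further test.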

How the results depend on the processing

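The number of members called in NEO-OUT versus wild-type was 1 and became 0 with no filter, quantile normalization, embryo sex as a covariate or runs of 3 consecutive embryo numbers as a random block, and ran between 0 and 1 with 1 embryo left out. In NEO-IN versus NEO-OUT it was 1 and became 2 with edgeR (Prl3d1 added) and with DESeq2 (Elf5 added), and ran between 1 and 2 with 1 embryo left out: Elf5 was added without NEO-IN 2 or NEO-OUT 9, and Prl3d1 without NEO-IN 5. Whether the embryo numbers shared by wild-type and NEO-IN libraries pair them cannot be settled from 3 shared numbers. Correlations of deviations were 0.07, -0.02 and 0.00, and 2 of 3 wild-type embryos correlated best with their own number. With that number as a replicate block, members called in NEO-IN versus wild-type were 1 in place of 0 (Prl3d1), all genes called were 500 in place of 489, and Esrrb changed sign to 0.036. Changes of sign of the members' log2 changes touched only uncalled values. Cdx2 in NEO-OUT versus wild-type was -0.012 with sex as a covariate, and Ascl2 in NEO-IN versus NEO-OUT was 0.0027 with quantile normalization and 0.0068 with sex as a covariate. With 1 embryo left out, Bmp8b ran between -0.048 and 0.047 for NEO-IN, -0.022 and 0.089 for NEO-OUT and -0.035 and 0.060 for Apela KO, each versus wild-type, and -0.079 and 0.022 between the strains. Cdx2 ran between -0.0056 and 0.12 for NEO-OUT versus wild-type and -0.018 and 0.097 between the strains. Elf5 ran between -0.13 and 0.0099 for Apela KO versus wild-type. Between the strains, Ascl2 ran between -0.13 and 0.12 and Plet1 between -0.078 and 0.42.

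All genes called in NEO-IN versus wild-type were 489, against 929 with DESeq2, 310 with sex as a covariate, 237 with runs as a block and 206 to 239 without 1 wild-type embryo. In NEO-OUT versus wild-type they were 1043, against 1634 with DESeq2, 531 with runs and 383 to 500 without 1 wild-type embryo. For Apela KO versus wild-type they were 465, against 899, 304 and 188 with DESeq2, sex and runs, and 153 to 200 without 1 wild-type embryo. Between the strains they were 2180, against 1432 with runs. Calls of Prl3d1 rest on a gene that passed the filter only through NEO-IN 6 and are not read as results. The causes were not tested. The 3 wild-type embryos limit every comparison with wild-type, and low read counts limit what can be said of Tpbpa and Prl3d1. Leaving out the other groups could not be done for Apela KO versus wild-type, which uses all of them, and a filter of 50 left Prl3d1 untested.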

Other observations

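Lists of the tissues around the trophoblast gave the following counts, where 6.35% of all genes were called in NEO-OUT versus wild-type, 2.83% in Apela KO versus wild-type and 13.3% between the strains (6.52% lower in NEO-IN). Of 10 visceral endoderm genes, Ttr and Apoa1 (0.35, SE 0.10, limma adjusted p = 0.0468) were called higher in NEO-OUT versus wild-type, and Ttr (-0.54, SE 0.08, limma adjusted p = 0.000473), Apoa1 (-0.28), Hnf4a (-0.22) and Trf (-0.66) lower in NEO-IN versus NEO-OUT. The Apoa1 call in NEO-OUT versus wild-type was lost in 12 of 15 fits without 1 embryo and the Apoa1 call between strains in 6, while the Ttr call in NEO-OUT versus wild-type was lost without wild-type 1 or 2. The Ttr, Hnf4a and Trf calls between strains were kept in all 15. None of 8 parietal endoderm genes was called; the smallest p values belonged to Sox7 (-0.24 in NEO-IN versus NEO-OUT, limma adjusted p = 0.0663) and Lama1 (0.35 in NEO-OUT versus wild-type, limma adjusted p = 0.29).

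Of 7 epiblast genes, Otx2, a homeobox factor of the anterior epiblast and visceral endoderm, was lower in NEO-OUT versus wild-type (-0.42, SE 0.07, limma adjusted p = 0.00243) and in Apela KO versus wild-type (-0.30, SE 0.06, limma adjusted p = 0.0197, lost without wild-type 1 or 2 and, at 0.0526, with embryo sex as a covariate), and higher in NEO-IN versus NEO-OUT (0.24, SE 0.06, limma adjusted p = 0.0119). Of 12 primitive streak and posterior genes, Hoxb1 was lower in NEO-OUT versus wild-type (-0.54, SE 0.15, limma adjusted p = 0.0355, lost without any one wild-type embryo). Of 12 decidua and uterine NK cell genes, 4 were tested. Des was lower in NEO-OUT versus wild-type (-0.61, limma adjusted p = 0.036, lost in 7 of 15 fits without 1 embryo) and Cryab higher in NEO-IN versus NEO-OUT (0.45, limma adjusted p = 0.0438, lost in 12 of 15). The Apoa1, Hoxb1, Des and Cryab calls were also lost with runs of 3 embryo numbers as a random block, and that of Des with embryo sex as a covariate.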
